A study of Bos taurus with 81 samples.

Results

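The sites described here are 1 kb stretches of the cattle genome that lay under an H3K4me3 peak in every H3K4me3 library of a series running from the oocyte to the blastocyst. The 29 autosomes were divided into 1 kb bins from position 0, a bin counted as marked in a peak list where peaks covered at least 50% of it, and the constant sites were chosen by this H3K4me3 coverage alone, as the bins marked in all 18 H3K4me3 lists. There were 9909 such sites among 2488032 autosomal bins, which is 0.398% of the bins and 3.43% of the bins marked in at least 1 H3K4me3 list. Touching sites were joined into 7746 islands, of which 76.8% were 1 kb long, 19.6% were 2 kb long and the longest was 8 kb long.

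The series maps histone marks in bovine oocytes and embryos with CUT&Tag, where antibodies guide a transposase to the marked nucleosomes, and open chromatin with ATAC-seq, where the transposase inserts wherever DNA is accessible. Oocytes from slaughterhouse ovaries were taken at the germinal vesicle stage (GV), before maturation. Other oocytes were matured and fertilized in vitro with thawed semen, and embryos were collected with 2 cells at 32 h (2C), with 4 cells at 44 h (4C), with 8 cells at 56 h (8C), as morulae at 122 h (MO) and as blastocysts at 172 h (BL) after insemination. A further group of 8-cell embryos, 8A, was grown with 50 µg/ml α-amanitin, an inhibitor of RNA polymerase II, and collected at 56 h. The inner cell mass (ICM) was obtained from blastocysts by immunosurgery and the trophectoderm (TE) by cutting with a micro scalpel, and no purity is given for either. Each library held about 500 oocytes or 1000 to 1500 blastomeres, pooled over embryos, and all groups other than 8A were grown without the inhibitor. H3K4me3, H3K27ac, H3K27me3 and H3K9me3 each had 2 libraries in each of the 9 groups, and ATAC-seq had 3 libraries each in BL, ICM and TE. The labels do not say whether libraries of a group came from separate collections of embryos, so the spread between them may be technical.

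H3K4me3 is found at most active and poised promoters, where it goes with an open, unmethylated stretch of DNA, and in oocytes it also spreads over domains away from promoters that are removed in the embryo. H3K27ac is laid down at active promoters and enhancers and is read as the more direct sign of activity, whereas H3K27me3 is placed by the Polycomb complex PRC2 and can share a promoter with H3K4me3, a state named bivalent. H3K9me3 marks heterochromatin and silenced repeats. In cattle the main wave of embryonic transcription starts at about the 8-cell stage.

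The peak lists covered very different lengths of the autosomes. H3K4me3 lists covered 37.7 to 176 Mb, H3K27ac lists 43.4 to 142 Mb, H3K27me3 lists 110 to 281 Mb, H3K9me3 lists 96.6 to 188 Mb and ATAC lists 80.8 to 117 Mb. The number of reads behind a list is unknown, so no counting interval can be given, and the length of the list is given beside results that it moves with. A peak is called on a pool of cells, so fewer cells with a mark and less of the mark in each cell cannot be told apart. With 2 libraries against 2, the smallest two-sided p that an exact test could give is 0.33, and with 3 against 3 it is 0.1. No p is therefore given, and differences are set against the SD pooled within the groups of an assay. The labelled cell types were not checked against marker genes, because gene positions on the build of the files, ARS-UCD1.2, were not used here.

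The 18 H3K4me3 lists chose the sites, so their H3K4me3 values are a description. There were 78843 bins marked in 1 list, 14021 in 10 lists, 2586 to 3428 in each number of lists from 11 to 15, 3351 in 16, 3962 in 17 and 9909 in 18, so bins marked throughout were more frequent than bins that missed a few lists. Just inside the threshold, 2640 sites had 50 to 55% coverage in their weakest list, and the median of that lowest coverage was 70%. Only 471 sites were fully covered in every list. Just outside, 1806 of the 3962 bins in 17 lists had 40 to 45% coverage in the list that missed them, and 582 had none. The missing list was replicate 2 of 8A for 1050 of these bins and replicate 1 of GV for 831, whereas it was replicate 2 of 8C for 5. Bases covered in all 18 lists summed to 8.43 Mb.

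Constant sites were unevenly spread over the genome. Their density was 3.98 per Mb over all autosomes, with 10.7 per Mb on chromosome 25, 9.85 on chromosome 19 and 9.68 on chromosome 18, and 1.9 on chromosome 20. The median gap between neighbouring islands was 96 kb, and 48.9% of the gaps were over 100 kb. Only 7.08% of the gaps were 5 kb or less, so most islands stood alone.

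H3K27ac, the mark of active promoters, was present at most constant sites in oocytes, at a minority in 2-cell and 4-cell embryos, and at most of them again from the 8-cell stage. It covered at least 50% of 75.6% and 77.2% of the sites in the GV libraries, 37.0% and 41.6% at 2C, and 35.6% and 32.5% at 4C. At 8C the libraries gave 69.2% and 67.8%, at MO 69.1% and 69.3%, and at BL 61.3% and 64.0%. Libraries of 2C and 4C lay below all others, and the libraries of 8C and MO overlapped. The means were 76.4% ± 1.13 (SD, n = 2) in GV, 39.3% ± 3.25 at 2C, 34.0% ± 2.21 at 4C, 68.5% ± 0.963 at 8C, 69.2% ± 0.107 at MO and 62.7% ± 1.88 at BL.

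From GV to 2C the share fell by 37.1 percentage points, which is 20.1 times the pooled replicate SD of 1.85 points. A site was called lost between a pair of groups where every library of the first and no library of the second was marked, and gained in the opposite case. By this rule 2735 sites (27.6%) lost H3K27ac from GV to 2C, beside 2.72% of all autosomal bins and 13.5% of the bins marked in 1 to 17 H3K4me3 lists. It was gained at 276 (2.79%), beside 0.523% of all bins and 4.22% of the bins in 1 to 17 lists. From 4C to 8C the share rose by 34.5 points, or 18.7 SD, with 2457 sites gained (24.8%, beside 1.84% of all bins and 7.32% of the bins in 1 to 17 lists) and 145 lost (1.46%, beside 0.193% and 1.58%). In the bins marked in 1 to 17 lists the H3K27ac share fell by 10.97 points from GV to 2C and rose by 7.15 from 4C to 8C, so both steps were smaller there in points. In the 7313 bins marked in 16 or 17 lists, the set nearest to the constant sites, it fell by 36.97 points and rose by 36.2, so steps of this size were not particular to the sites marked in every list. From 8C to MO the share moved by 0.706 points, under the replicate SD, while 887 sites gained the mark and 933 lost it. These are 8.95% and 9.42% of the sites, beside 2.37% and 1.53% of all bins and 7.63% and 6.53% of the bins in 1 to 17 lists.

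**Figure D1:**
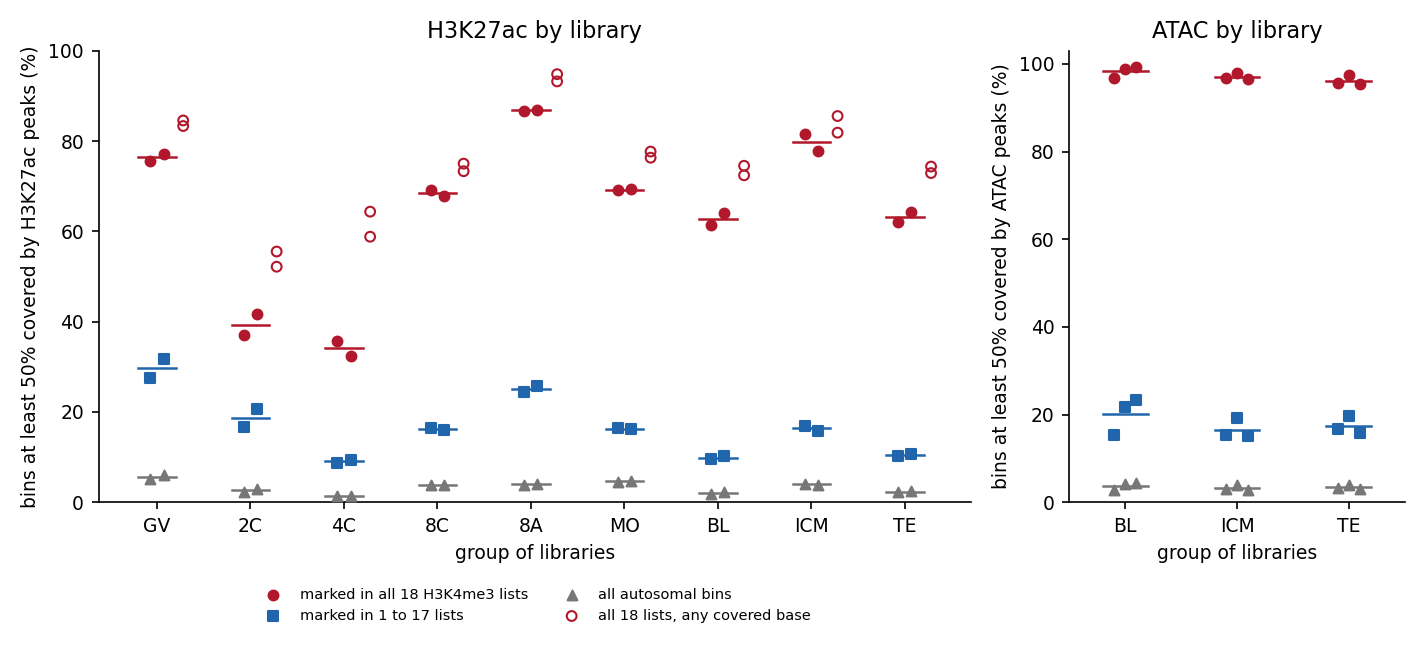
Percentage of bins at least 50% covered by H3K27ac peaks (left) or ATAC peaks (right) in each library (points) with the group mean (bars), for the 9909 constant sites, the bins marked in 1 to 17 H3K4me3 lists and all autosomal bins; open circles count a constant site with any covered base. The constant sites lie above both other sets in every library, with means of 39.3% at 2C and 34.0% at 4C and the highest mean, 86.8%, in 8A.

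At 2C and 4C many H3K27ac peaks covered less than 50% of a site. Any base of H3K27ac was present at 83.9% of the sites in GV, 53.8% at 2C, 61.6% at 4C, 74.2% at 8C, 77.0% at MO and 73.5% at BL. Counted this way, 4C lay above 2C, and the step from 4C to 8C was 12.6 points. Lists at 4C were also short, at 43.4 and 44.0 Mb, against 89.7 and 90.5 Mb at 8C and 127 and 142 Mb in GV. With every H3K27ac list shortened by score to 43.4 Mb, the shares were 45.8% ± 4.39 in GV, 29.9% ± 1.76 at 2C, 33.9% ± 2.36 at 4C, 52.8% ± 0.157 at 8C, 41.9% ± 1.63 at MO and 60.0% ± 0.457 at BL (SD, n = 2 each). In shortened lists the fall from GV to 2C was 15.9 points and the rise from 4C to 8C was 18.9, so both kept their direction (with H3K4me3 lists shortened instead, which leaves 1934 sites, the fall from GV to 2C was 18.8), whereas MO lay below 8C and GV no longer lay above 8C. The meaning of the score is not given. Over the peaks of single H3K27ac lists its Spearman correlation with peak width was 0.868 to 0.951, so wide peaks made up more of a shortened list.

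Individual sites followed many H3K27ac courses. A site was called on in a group where both libraries were marked, off where neither was, and mixed otherwise, and 2070 different strings of these calls over the 9 groups occurred. The most frequent string, off at 2C and 4C and on in the other 7 groups, held 472 sites (4.76%). H3K27ac was on in all 9 groups at 460 sites (4.64%), beside 0.0227% of all bins and 0.0373% of the bins in 1 to 17 lists, and 104 such bins lay outside the constant sites. At 52 sites (0.525%) it was off in all groups, beside 81.7% of all bins and 27.7% of the bins in 1 to 17 lists. The first untreated embryo stage at which H3K27ac was on was 2C for 2198 sites (22.2%, beside 1.2% of all bins and 9.29% of the bins in 1 to 17 lists) and 4C for 1082 (10.9%, beside 0.327% and 2.27%). It was 8C for 3646 (36.8%, beside 2.11% and 8.8%), MO for 1269 (12.8%, beside 2.63% and 8.62%) and BL for 297 (3.00%, beside 0.412% and 1.77%). No stage was on for 1417 sites (14.3%, beside 93.3% and 69.2%). The 8-cell stage was thus the most frequent first stage. Calls at 2C and 4C are the least certain, since replicates gave the same call at 65.7% and 72.6% of the sites there and at 86.3 to 93.6% in the other groups.

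Among sites without H3K27ac at 2C and 4C, those with it in the oocyte had it at 8C more often than those without. Of 1733 sites on in GV and off at 2C and 4C (17.5% of the sites, beside 2.5% of all bins and 12% of the bins in 1 to 17 lists), 977 were on at 8C, which is 56.4% of them and 9.86% of the sites, beside 0.3% and 1.85%. Of 829 sites off in all 3 groups, 222 (26.8%) were on at 8C. The same classes among bins marked in 1 to 17 lists were on at 8C in 15.4% and 5.97% of cases. A site on at 4C was on at 8C in 84.3% of 2017 cases, against 45.9% of such bins in 1 to 17 lists.

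The α-amanitin group addresses which marks differ when transcription is inhibited. H3K27ac covered 86.7% and 86.9% of the constant sites in the 8A libraries, the highest share of any group and above both 8C libraries. The mean of 86.8% ± 0.171 (SD, n = 2) was 18.3 points above that of 8C, or 9.91 SD. H3K27ac was on in 8A and off at 8C at 1518 sites (15.3%), beside 1.23% of all bins and 8.88% of the bins in 1 to 17 lists, and the reverse held at 185 sites (1.87%), beside 1.14% and 3.47%. Over all autosomal bins the 8A and 8C libraries overlapped, at 3.99% ± 0.195 and 3.86% ± 0.0321. In the bins in 1 to 17 lists both 8A libraries lay above both 8C libraries, with means of 25.1% and 16.2%. The same held in the bins marked in 16 or 17 lists, at 69.7% and 54.8%, a difference of 14.9 points. With lists shortened to one length the difference at constant sites was 17.3 points.

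The difference between 8A and 8C went in opposite directions in bins that gain or lose H3K4me3. In bins that had H3K4me3 in all lists of GV, 2C and 4C and in none of MO, BL, ICM and TE (29366 bins, called erased), the H3K27ac share was 55.1% ± 0.549 in 8A and 15.6% ± 0.797 at 8C. Bins with the reverse H3K4me3 course (3938 bins, called new) had 8.44% ± 0.593 in 8A and 30.0% ± 2.12 at 8C. The constant sites, at 86.8% and 68.5%, resembled the erased bins in direction. H3K27ac was off at 4C and on in 8A at 3489 sites (35.2%, beside 1.41% of all bins and 8.92% of the bins in 1 to 17 lists), and on at 4C and off in 8A at 3 (0.0303%, beside 0.0273% and 0.186%).

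Most sites that gained H3K27ac between 4C and 8C also carried it in the inhibited embryos. Of the 2457 sites that were off at 4C and on at 8C, 78.3% were also on in 8A and 7.08% were off there, while of all 9909 sites 80.8% were on in 8A (beside 2.65% of all bins and 17.7% of the bins in 1 to 17 lists). The share of all sites is not a like baseline, since it includes 2017 sites already on at 4C, of which 98.8% were on in 8A. For the 20386 bins with the same gain in 1 to 17 lists, 32.0% were on in 8A and 43.2% off. Sites with H3K27ac on in 8A and off at 8C had it less often than constant sites in general in GV, MO and ICM. Of these 1518 sites 52.8% were on in GV, 36.2% at MO and 59.9% in ICM, whereas of all constant sites 71.1% were on in GV (beside 4.08% of all bins and 22.9% of the bins in 1 to 17 lists), 64.4% at MO (beside 3.54% and 13.4%) and 76.5% in ICM (beside 3.21% and 14.1%). Of the 2445 constant sites off at 8C, whatever their call in 8A, 1228 were on in GV, while 36.3% were on at MO and 60.1% in ICM. In GV, at MO and in ICM the lower shares of the 1518 sites were therefore not particular to sites on in 8A. In the bins in 1 to 17 lists that were on in 8A and off at 8C, the shares were 25.5% in GV, 8.35% at MO and 10.1% in ICM.

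ICM and TE were compared in H3K27ac and in open chromatin. H3K27ac covered 81.6% and 77.8% of the sites in the ICM libraries and 62.1% and 64.2% in the TE libraries, and the groups did not overlap. The means were 79.7% ± 2.70 and 63.1% ± 1.47 (SD, n = 2), a difference of 16.6 points or 8.98 SD. ICM also lay above TE by 20.5 points in the bins marked in 16 or 17 lists and by 27.8 in the new bins. In the bins in 1 to 17 lists this difference was 5.80 points and in the erased bins 2.07. A difference of this size was thus not particular to the constant sites. H3K27ac was on in ICM and off in TE at 1148 sites (11.6%), beside 1.53% of all bins and 5.4% of the bins in 1 to 17 lists, and on in TE and off in ICM at 79 (0.797%), beside 0.447% and 1.47%. ICM lists were longer, at 91.3 and 98.2 Mb against 57.5 and 60.3 Mb. With lists of one length the shares were 60.6% ± 1.38 in ICM and 56.5% ± 0.956 in TE, a difference of 4.07 points, counting any covered base gave 10.1 points, and requiring sites and H3K27ac to be covered over the whole bin gave 25.4.

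Nearly all constant sites were open in the blastocyst and in both lineages. ATAC peaks covered at least 50% of 96.8 to 99.3% of the sites in BL, 96.5 to 97.9% in ICM and 95.4 to 97.4% in TE. The means were 98.3% ± 1.35, 97.1% ± 0.722 and 96.2% ± 1.06 (SD, n = 3), and the libraries of ICM and TE overlapped. Their difference of 0.885 points was 0.823 SD, and it was 2.90 points where a whole bin had to be covered. Open in all 9 libraries were 8947 sites (90.3%), beside 1.37% of all bins, 7.79% of the bins in 1 to 17 lists, 1.83% of the erased and 23.6% of the new bins. Open in every ICM and no TE library were 22 sites (0.222%), beside 0.334% of all bins and 1.28% of the bins in 1 to 17 lists. In the reverse direction there were 19 (0.192%), beside 0.42% and 1.74%. Open in no library were 19 sites (0.192%), beside 92.9% of all bins and 68.4% of the bins in 1 to 17 lists. Constant sites made up 8947 of the 33987 autosomal bins that were open throughout.

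H3K27me3, the Polycomb mark, was found at a minority of the constant sites in oocytes, at very few in cleavage embryos and again at a minority from the morula. It covered 19.6% and 15.3% of the sites in the GV libraries, 0.606% and 0.737% at 2C, 1.52% and 0.848% at 4C, and 2.23% and 2.04% at 8C. In 8A it covered 1.85% and 1.83%. At MO the libraries gave 16.2% and 16.1%, at BL 19.9% and 20.2%, in ICM 17.7% and 16.3%, and in TE 18.4% and 18.8%. Every library of 2C, 4C, 8C and 8A lay under 2.3% and every library of the other groups above 15%.

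The share fell by 16.8 points from GV to 2C, or 15.4 times the pooled SD of 1.09 points, and 1415 sites (14.3%, beside 5.19% of all bins and 24.2% of the bins in 1 to 17 lists) lost the mark and 4 (0.0404%, beside 1.68% and 1.74%) gained it. From 8C to MO it rose by 14.0 points, or 12.9 SD, with 1313 sites gained (13.3%, beside 3.75% and 21.4%) and 50 lost (0.505%, beside 2.98% and 2.9%). In GV and MO the constant sites held H3K27me3 more often than all bins did, by 1.83 and 2.57 times, but at 2C their share was 0.139 times that of all bins. The bins in 1 to 17 lists held more in every group, from 10.1% at 2C to 47.9% at BL. From GV to 2C the share fell by 8.19 points with H3K27me3 lists shortened to 110 Mb and fell by 29.3 points with H3K4me3 lists shortened. From MO to BL the share rose by 3.89 points, which turned into a fall of 4.34 when H3K27me3 lists were shortened. The BL lists covered 271 and 281 Mb and those of MO 163 and 149 Mb.

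The oocyte and the blastocyst marked partly the same constant sites with H3K27me3. The mark was on in GV at 1473 sites (14.9%, beside 7.28% of all bins and 32.5% of the bins in 1 to 17 lists) and on at BL at 1836 (18.5%, beside 9.66% and 44.9%), and 919 sites were in both (9.27%, beside 4.02% and 24.6%), which is 62.4% of the first and 50.1% of the second. The same overlap was 55.3% and 41.7% for all bins and 75.6% and 54.6% for the bins in 1 to 17 lists, so that of the constant sites lay between them. Of these, 829 were off at 2C, 4C and 8C (8.37% of the sites, beside 2.52% of all bins and 15.3% of the bins in 1 to 17 lists). H3K27me3 was off in all 9 groups at 6503 sites (65.6%), beside 73.3% and 31.3%. ICM and TE shared 1256 sites, 81.6% of the 1539 on in ICM (15.5% of the sites, beside 8.58% and 40.3%) and 74.0% of the 1697 on in TE (17.1%, beside 9.62% and 44.7%). This overlap also lay between that of all bins, 78.8% and 70.3%, and that of the bins in 1 to 17 lists, 89.0% and 80.4%.

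**Figure D2:**
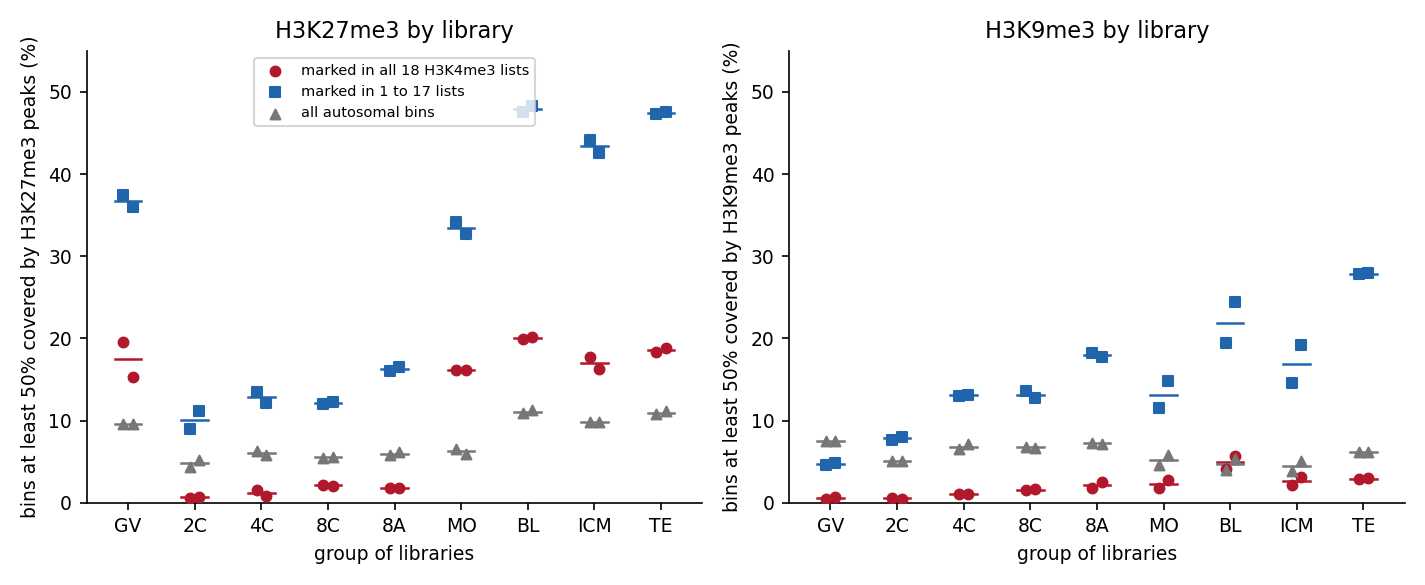
Percentage of bins at least 50% covered by H3K27me3 peaks (left) or H3K9me3 peaks (right) in each library (points) with group means (bars), for the constant sites, the bins marked in 1 to 17 H3K4me3 lists and all autosomal bins. H3K27me3 at constant sites is 0.671% at 2C and 20.0% at BL, and H3K9me3 stays below 6% in every library.

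H3K9me3, the heterochromatin mark, was rare at the constant sites, and its mean share lay below that of all autosomal bins in every group but BL. The means were 0.590% of the sites and 7.51% of all bins in GV, and 4.91% and 4.70% at BL. The share of the sites was 0.525% and 0.656% in the GV libraries, 0.606% and 0.525% at 2C, 1.03% and 1.09% at 4C, 1.58% and 1.62% at 8C and 1.79% and 2.50% in 8A. It was 1.83% and 2.76% at MO, 4.16% and 5.66% at BL, 2.14% and 3.15% in ICM and 2.93% and 2.98% in TE. BL lay above all other groups and 4.32 points, or 8.46 times the pooled SD of 0.510, above GV, with 301 sites gained (3.04%, beside 2.75% of all bins and 16.7% of the bins in 1 to 17 lists) and 5 lost (0.0505%, beside 4.88% and 3.15%). The difference was 7.06 points with H3K4me3 lists shortened. H3K9me3 was off in all groups at 8795 sites (88.8%), beside 77.9% and 53.6%. At BL it was on at 342 sites (3.45%, beside 3.45% and 17.6%), and 296 of them (86.5%) also had H3K27me3 on, which compares with 74.6% of all bins with H3K9me3 on at BL and 91.8% of those in 1 to 17 lists.

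The later presence of H3K27me3 divided the constant sites in their H3K27ac course. The 1248 sites with H3K27me3 on in BL, ICM and TE (12.6%, beside 6.52% of all bins and 35.4% of the bins in 1 to 17 lists) were set against the 6503 sites where it was off in all groups. The libraries of both classes overlapped at 2C, with H3K27ac at 41.2% ± 3.00 and 38.8% ± 2.74 of the sites (SD, n = 2), and lay close together at 4C, with 37.9% ± 0.737 and 35.0% ± 2.65. In 8A they overlapped again, at 88.2% ± 0.680 and 88.5% ± 0.120. At 8C H3K27ac covered 53.0% ± 1.19 of the sites with later H3K27me3 and 76.6% ± 1.21 of those without.

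From the morula the classes were far apart. At MO the shares were 16.3% ± 2.15 with later H3K27me3 and 85.0% ± 0.130 without, and at BL they were 6.37% ± 1.3 and 79.9% ± 2.03. In ICM they were 19.2% ± 4.99 and 95.1% ± 1.52, and in TE 7.17% ± 0.850 and 80.4% ± 1.75. No library of one class reached the other in these groups. Even so, ATAC peaks covered 97.8% ± 1.8 of the sites with later H3K27me3 in BL, 94.4% ± 1.70 in ICM and 91.9% ± 2.22 in TE (n = 3), against 98.6% ± 1.15, 98.0% ± 0.566 and 97.4% ± 0.747. H3K9me3 covered 30.6% ± 6.18 of the sites with later H3K27me3 at BL and 0.630% ± 0.0870 of those without. Bins in 1 to 17 lists with H3K27me3 on in BL, ICM and TE were open at 8.81% ± 2.39 in BL and carried H3K27ac at 0.167% ± 0.0179. Those where it was off in all groups were open at 30.2% ± 5.18 and carried H3K27ac at 21.4% ± 1.12. The H3K27ac shares of bins in 1 to 17 lists, with and without later H3K27me3, were 21.7% and 42.2% in GV, 24.1% and 12.7% at 2C and 10.5% and 7.64% at 4C. They were 27.2% and 25.0% in 8A, 9.26% and 26.8% at 8C and 1.83% and 32.1% at MO. A lower share with later H3K27me3 at 8C and MO was thus not particular to the constant sites. At 2C and 4C, however, the classes of these other bins were apart in the opposite direction.

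A further class of 338 sites had H3K27me3 on in GV and off in MO, BL, ICM and TE. Its H3K27ac share was 47.8% ± 1.88 in GV, overlapping the 49.8% ± 2.95 of the sites with later H3K27me3 and below the 87.5% ± 0.565 of the sites never marked. At MO this share was 78.4% ± 1.67 and in ICM 87.3% ± 3.77. The 404 sites with H3K27me3 off in GV and on in BL, ICM and TE had 58.4% ± 3.15 in GV, 11.1% ± 1.75 at MO and 2.85% ± 1.93 at BL. In the oocyte 539 sites had both H3K27me3 and H3K27ac on, 36.6% of the sites with H3K27me3, and at BL 133 sites did, 7.24%. In the bins in 1 to 17 lists these shares were 6.02% and 0.284%, and in all autosomal bins 3.49% and 0.215%. Of all constant sites 71.1% had H3K27ac on in GV, beside 22.9% of the bins in 1 to 17 lists and 4.08% of all bins. Constant sites with H3K27me3 in the oocyte thus had H3K27ac there less often than constant sites in general.

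**Figure D3:**
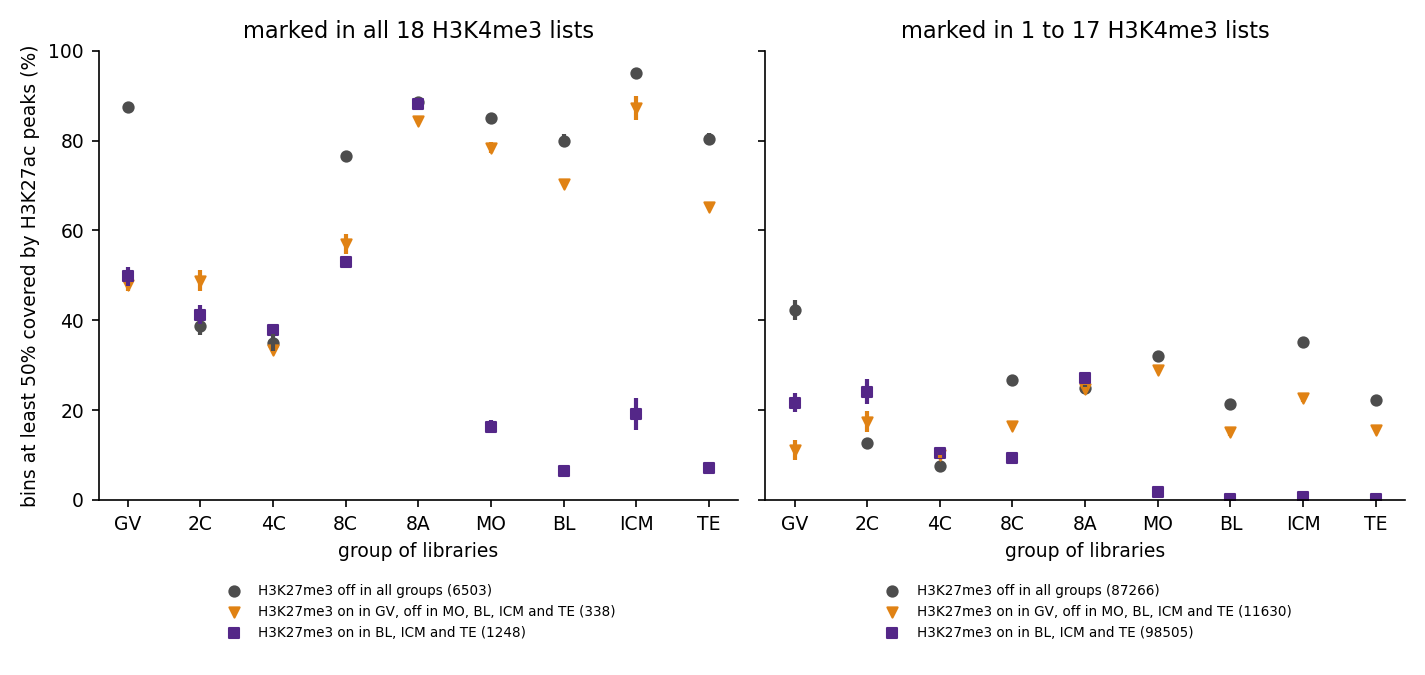
Percentage of bins at least 50% covered by H3K27ac peaks in each group, by the H3K27me3 calls of the bins (number of bins in brackets), for constant sites (left) and bins marked in 1 to 17 H3K4me3 lists (right); points are means and lines join the lowest and highest of the 2 libraries. At constant sites the class with H3K27me3 on in BL, ICM and TE is level with the never marked class in 8A, at 88.2% and 88.5%, and far below it at BL, at 6.37% and 79.9%.

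The H3K4me3 peak at the constant islands was widest from the 8-cell stage onward in untreated embryos and narrowest in oocytes and in inhibited embryos in the lists as deposited. These lists chose the sites, so widths are a description. The median width of the peak that held most of an island was 1.3 and 1.4 kb in the GV libraries, 1.65 and 1.7 kb at 2C, 1.55 and 1.65 kb at 4C, 2.05 and 2.45 kb at 8C and 1.3 and 1.1 kb in 8A. It was 2.35 and 2.55 kb at MO, 2.45 and 2.55 kb at BL, 2.35 and 2.4 kb in ICM and 2.5 and 2.6 kb in TE. Both 8A libraries lay below both 8C libraries, and GV lay below every untreated embryo group, an order that did not hold for 2C and 4C once lists were shortened to one length. All autosomal H3K4me3 peaks together had medians of 0.5 to 1.45 kb, lower than at the islands in each library. The coverage rule that chose the sites favoured wide peaks in every list. The higher island medians therefore follow at least in part from that rule and are not a separate result. Peaks of 5 kb or more held 0.600% ± 0.374 of the islands in GV and 8.56% ± 0.529 at BL (SD, n = 2).

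Widening from GV to BL was frequent at the islands and also over other bins. From GV to BL 5955 islands (76.9%) had a wider peak in every BL than in every GV library and 532 (6.87%) a narrower one. Of all bins marked in every library of both groups, 69% lay under a peak that was wider at BL and 10.3% under a narrower one. From 4C to 8C 54.3% of the islands widened, beside 35.5% of such bins, and 2.29% narrowed, beside 6.47%. In 8A the peak was narrower than at 8C at 6174 islands (79.7%), beside 61.9% of such bins, and wider at 19 (0.245%), beside 1.11%. The median log2 ratio over islands was 0.90 for BL over GV and -0.87 for 8A over 8C.

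The difference between oocyte and blastocyst was smaller once neighbouring peaks were joined. With peaks under 3 kb apart joined, the medians were 2.5 kb ± 0.283 in GV, 2.93 kb ± 0.106 at 2C, 3.2 kb ± 0.566 at 8C, 2.13 kb ± 0.106 in 8A and 3.4 kb ± 0.141 at BL (SD, n = 2). They were 2.88 kb ± 0.106 at 4C, 2.88 kb ± 0.177 at MO, 2.85 kb in both ICM libraries and 3.08 kb ± 0.0354 in TE. With joined peaks 2C thus lay above MO and ICM, and the order with the widest peaks from the 8-cell stage onward did not hold. The log2 ratio of the medians of BL and GV, 0.89 as deposited, became 0.45 with joined peaks and 0.46 with lists shortened by score to 37.7 Mb. In shortened lists only 36.3% ± 11.4 of the islands kept a peak in GV, against 96.3% ± 2.39 in 8A and 97.6% ± 0.219 at BL, and the median was 2.08 kb ± 0.389, 1.23 kb ± 0.106 and 2.55 kb ± 0.0707. The median at 2C was 2.0 kb ± 0.0707 and at 4C 1.8 kb ± 0.141, so that with lists of one length GV no longer lay below these groups. Islands that kept a peak were 68.1% ± 0.338 at 2C and 80.0% ± 6.32 at 4C. The 8A median was the lowest of all groups with lists of one length too, where 8C had 2.48 kb ± 0.530.

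**Figure D4:**
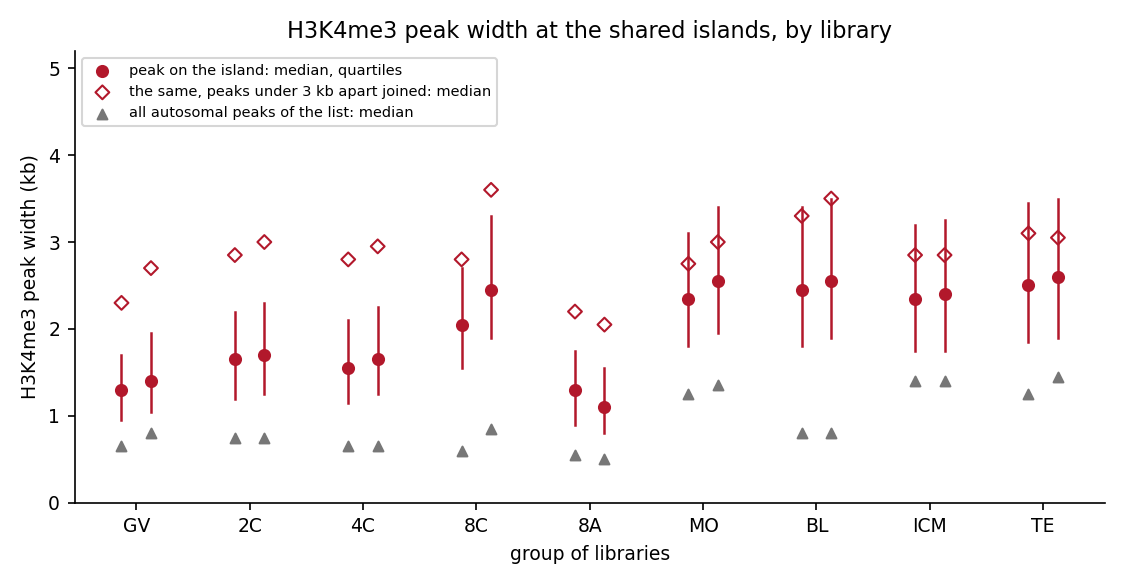
H3K4me3 peak width in kb at the 7746 constant islands in each library (2 per group): filled circles are medians with lines over the middle 50% of islands, open diamonds are medians with peaks under 3 kb apart joined, and grey triangles are medians of all autosomal peaks of the list. Island medians run from 1.1 kb in replicate 2 of 8A to 2.6 kb in replicate 2 of TE.

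Width went with the other marks in different ways. The islands were ranked by mean H3K4me3 width over the 18 lists and divided into 4 groups of 1931 to 1943 islands, the lowest with means of 0.742 to 1.70 kb and the highest with 2.63 to 10.3 kb. At BL H3K27ac covered 48.6% ± 2.29 of the sites in the narrowest group and 70.5% ± 0.713 in the widest (SD, n = 2), and in ICM 71.2% ± 3.33 and 85.1% ± 1.95. At 4C both had about the same share, 34.4% ± 1.61 and 33.8% ± 2.38. H3K27me3 in GV covered 12.2% ± 2.90 of the sites in the narrowest group and 24.7% ± 3.61 in the widest, whereas at BL the values were 22.1% ± 1.04 and 18.9% ± 0.151. Sites with H3K27me3 on in BL, ICM and TE had wider H3K4me3 peaks than never marked sites in GV, with island medians of 1.8 kb ± 0.141 and 1.28 kb ± 0.106, and narrower ones at BL, with 1.7 kb ± 0.141 and 2.73 kb ± 0.0354.

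Profiles over the 5 kb on either side of the island centres showed how far each mark reached. They used the 7734 islands with a stretch covered in all 18 lists, centred on that stretch. The H3K4me3 profile, which is 100% at the centre by the choice of sites, was 1.45 kb wide at 50% of its peak in GV and 8A, 1.95 kb at 2C and 4C, and 2.35 to 2.5 kb in the other groups. H3K27ac also peaked at the island centres but varied in height and reach, being wider than H3K4me3 in GV and narrower at 2C and 4C. It peaked at 79.5% of the islands in GV with a width of 2.2 kb, at 42.5% with 1.25 kb at 2C and at 46.0% with 0.9 kb at 4C. At 8C the peak was 69.5% with a width of 2.2 kb, whereas in 8A it was higher, at 88.8%, and narrower, at 1.55 kb. ICM had 81.6% and 2.35 kb, and TE 67.7% and 1.65 kb.

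**Figure D5:**
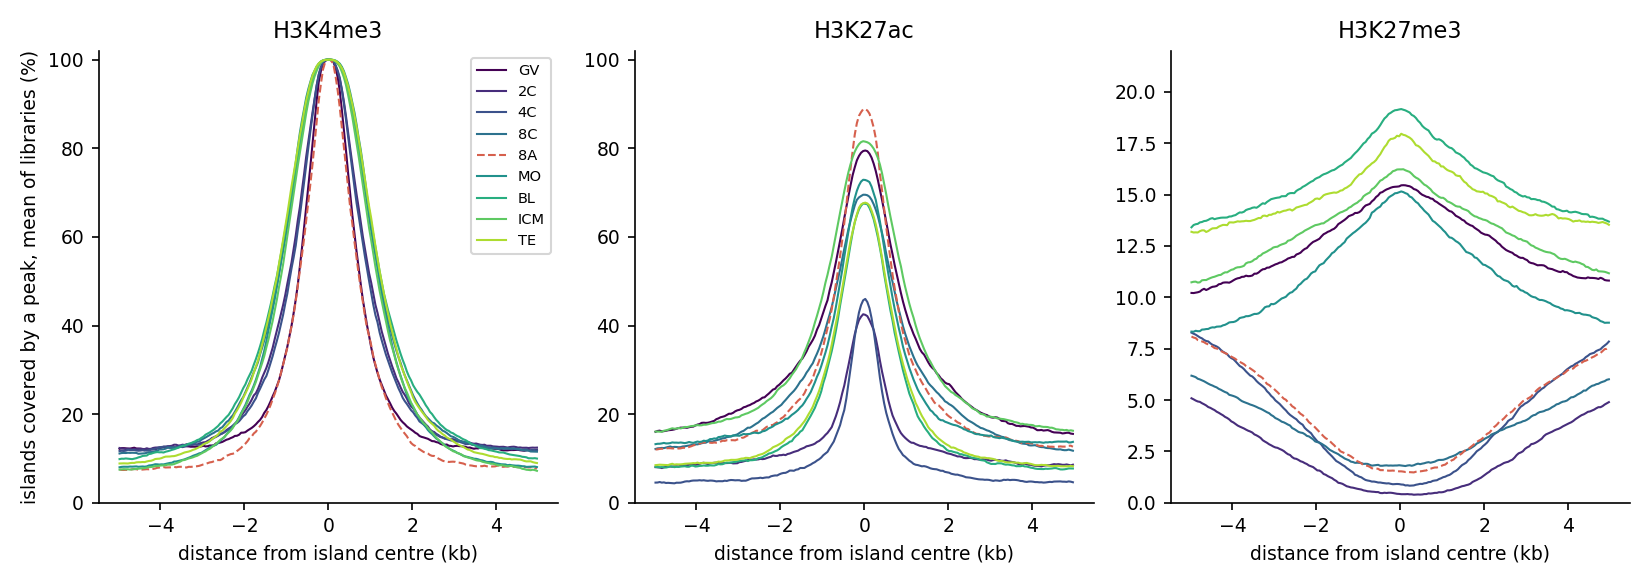
Percentage of 7734 constant islands covered by an H3K4me3 (left), H3K27ac (middle) or H3K27me3 peak (right, on a smaller vertical scale) at each distance from the island centre in kb, as the mean of the 2 libraries of each group (lines; 8A dashed). H3K27ac is narrowest at 4C and highest in 8A, and H3K27me3 dips at the centre at 2C, 4C, 8C and 8A and peaks there in the other groups.

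H3K27me3 was less frequent at the island centres than around them in cleavage embryos. At 2C H3K27me3 covered 0.420% of the island centres and 4.90% and 5.09% of the points 5 kb away on either side. At 8C these values were 1.82%, 6.01% and 6.19%. From the morula the pattern was inverted, with 15.2% at the centre at MO and 8.77% and 8.33% at 5 kb, and GV resembled MO with 15.5%, 10.8% and 10.2%. H3K9me3 covered 0.349% of the centres in GV against 7.95% and 8.26% at 5 kb, and at BL 4.82% against 2.86% and 2.69%. Peaks of these marks were called on a coarser grid of 200 bp with gaps of at least 1200 bp, so a dip narrower than that gap cannot be seen.

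Single islands illustrate these courses, with values as the percentage of the island covered in replicates 1 and 2. The island with the widest mean H3K4me3 peak, on chromosome 18 from 61892001 to 61898000, had a peak of 5.55 and 6.55 kb in GV and of 14.05 and 17.25 kb at 8C. Its H3K27ac coverage was 100% and 98.3% in GV, 46.7% and 63.3% at 2C, 55% and 32.5% at 4C and 97.5% in both libraries of 8C, and neither H3K27me3 nor H3K9me3 touched it in any list. Its H3K27ac coverage was thus lower at 2C and 4C than in GV and at 8C, without being absent. A further long island, on chromosome 7 from 44175001 to 44182000, had H3K27ac over 82.1% and 68.6% in GV, 12.1% and 31.4% at 4C and 98.6% and 95.7% at 8C, also without H3K27me3 or H3K9me3 in any list.

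Some Polycomb-marked islands ran the other way after the 8-cell stage. The longest runs with H3K27me3 on in BL, ICM and TE did not do so over their whole length. That on chromosome 27 from 6219001 to 6226000 had H3K27ac on in all 9 groups. So did positions 826001 to 830000 of the run on chromosome 16 from 822001 to 830000. On chromosome 27 from 25690001 to 25696000, H3K27ac covered 16.7% and 14.2% of the island in GV, 95.8% and 96.7% at 8C, 85.8% and 89.2% in 8A, 21.7% and 31.7% at MO and 0% and 6.67% at BL. H3K27me3 covered 100% and 60% in GV, nothing at 2C, 4C, 8C or in 8A, and 100% in both libraries of MO, BL, ICM and TE. ATAC peaks covered 95%, 95% and 95.8% in the BL libraries. An island on chromosome 3 from 21314001 to 21321000 had H3K27ac over 91.4% and 88.6% in GV and 87.9% and 95% at 8C, but over 32.1% and 26.4% at MO, and its H3K27me3 was 97.1% and 100% in GV, 0% in every cleavage library and 71.4% in both libraries of BL.

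Other islands departed from the common order. On chromosome 7 from 12736001 to 12740000 H3K27ac was 0% in both 8C libraries and 88.8% and 98.8% in 8A, then 90% and 88.8% at MO. On chromosome 2 from 126719001 to 126722000 H3K27me3 covered the whole island in both GV libraries together with H3K27ac at 93.3% and 85%, and H3K27me3 was then absent from every later list. H3K27ac there was 0% in both 8C libraries and 93.3% and 96.7% at MO. On chromosome 16 from 49436001 to 49438000 H3K27ac covered at most 37.5% in any library, while ATAC peaks covered 47.5 to 100%. The island with the narrowest mean peak, on chromosome 8 from 20303001 to 20304000, had widths of 0.5 to 1.4 kb over the 18 lists.

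A few constant sites were covered in every assay, repressive marks included. H3K27me3 and H3K9me3 were marked in all 36 of their lists at 37 sites in 11 runs (0.373%, beside 0.0238% of all bins), and 29 sites in 12 runs were marked in all 81 lists (0.293%, beside 0.00117%). The longest of the latter runs lay on chromosome 27 from 6219001 to 6226000 and on chromosome 16 from 826001 to 830000. The longest island of all, on chromosome 16 from 822001 to 830000, holds the second of them and was covered by H3K27me3 and H3K9me3 to at least 97.5% in every library. Their sequence was not analysed here. Without the 37 sites the H3K27ac differences were -37.2 points for 2C against GV, 34.6 for 8C against 4C, 18.4 for 8A against 8C and 16.6 for ICM against TE. H3K27me3 at 2C was 0.299% without them, in place of 0.671%.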

How the data were processed

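One peak list per library (81 in all) was used, each with chromosome, start, end, peak name and a whole number. The submitters' processing notes name, with no roles, SICER, SAMtools 1.9, Picard 2.26.10, BWA 0.7.9a, cutadapt 1.8.3 and Trim Galore 0.4.0, and build ARS-UCD1.2, while the deposited lists are named for epic2. The labels and lists do not say which caller was used, with which cutoffs or control. The whole number is a score the authors deposited without a name, and it served only to shorten lists. Peak edges lie on a grid of 50 bp (200 bp for H3K27me3 and H3K9me3), and depth is unknown.

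Coverage, islands, peak widths, profiles and calls were computed in pandas 2.3.3 and NumPy 2.4.6 under Python 3.11.15 and drawn with matplotlib 3.10.9, and binning and shortening were tested on simulated data. The sites, comparison sets and measures were chosen with earlier results of these data known, and no test was made. Named regions are the longest islands, the longest runs of each H3K27ac, ATAC, H3K27me3 and H3K9me3 class (up to 3 per class) and the islands with the widest and narrowest mean peak, of which a part is described. Alternatives were other coverage cuts, bins of 2 kb, bins shifted by 500 bp, shortened lists, X added, islands as units and single libraries left out. Another pair, any covered base at fixed sites and the sites with both repressive marks throughout left out, were chosen after seeing the data. Sequence, gene names and unplaced scaffolds were not analysed here.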

Additional observations from a re-analysis of the deposited data

How the results depend on the processing

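The number of sites was 9909. It was 22120 with any covered base, 471 with whole bins, 3617 for bins of 2 kb and 1934 with H3K4me3 lists shortened by score, and 9914 to 10959 with single lists left out. No paired analysis was possible because the labels do not tie libraries with the same number to a shared collection and no model was fitted to which a replicate term could be added.

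In the order any covered base for sites and assay, any covered base at fixed sites, whole bin, 2 kb bins, the H3K27ac step from 4C to 8C was 16.7, 12.6, 48.9 and 44.3 points, and ICM minus TE was 12.1, 10.1, 25.4 and 19.0. The H3K27ac step from GV to 2C was -30.1 at fixed sites, -42.2 with 2 kb bins and -40.5 over islands. With H3K4me3 lists shortened, H3K27ac gave -18.8 for GV to 2C, 23.6 for 4C to 8C and 23.8 for 8A minus 8C, H3K27me3 gave -29.3 for GV to 2C, H3K9me3 gave 7.06 for BL minus GV and the log2 width ratio of BL and GV was 0.46. With the lists of the assay shortened, H3K27ac gave -15.9, 18.9 and 4.07 (ICM minus TE), H3K27me3 -8.19 for GV to 2C and -4.34 for BL minus MO, and H3K9me3 2.90. Among the differences followed through all settings, that of H3K27me3 in BL minus MO was the only one to change direction. Orders outside these differences changed too. In shortened H3K27ac lists BL lay above MO (60.0% and 41.9%), 4C above 2C (33.9% and 29.9%) and GV below 8C (45.8% and 52.8%). H3K27me3 from GV to 2C was -15.5 with any base, -23.7 with whole bins, -19.2 with 2 kb bins and -15.0 over islands. With whole bins, ATAC in ICM minus TE was 2.90, H3K27me3 in BL minus MO 4.99, H3K9me3 3.18 and the width ratio 0.67, and joined peaks gave 0.45. The causes were not tested beyond how each setting is built.

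Leaving out single libraries gave -39.4 to -34.8 for H3K27ac from GV to 2C, 32.9 to 36.0 from 4C to 8C, 17.6 to 19.0 for 8A minus 8C and 14.7 to 18.5 for ICM minus TE. It gave -18.9 to -14.7 for H3K27me3 from GV to 2C, 3.74 to 4.04 for BL minus MO, 3.57 to 5.07 for H3K9me3, 0.484 to 1.49 for ATAC and 0.84 to 0.94 for the width ratio. Of all alternatives for the number of sites and the differences followed, 107 moved a value by less than the replicate SD or, for the number of sites, by less than 1.5 times. A further 43 moved it by more, and 1 changed its direction. Unknown depth limits every share of sites covered.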

Other observations

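Bins marked in 16 or 17 of the 18 H3K4me3 lists (7313 bins) had lower shares of active marks than the constant sites. H3K27ac covered 63.5% ± 0.532 of them in GV, 26.5% ± 3.65 at 2C, 18.6% ± 0.561 at 4C, 54.8% ± 1.73 at 8C, 69.7% ± 0.832 in 8A and 50.7% ± 2.00 at BL (SD, n = 2), and 74.8% were open in all 9 ATAC libraries. H3K27me3 covered 18.3% ± 3.31 in GV, where the libraries of both sets overlapped. It covered 1.68% ± 0.416 at 2C and 21.5% ± 0.0387 at BL, above the constant sites in both libraries (0.671% ± 0.0928 and 20.0% ± 0.214).

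On X, which was outside the count, 161 of 139009 bins were marked in all 18 H3K4me3 lists, or 1.16 per Mb.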
